A study of Mus musculus with 18 samples.

Results

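The 9 genes of superoxide and peroxide removal, NRF2 control and the sestrin family described here (Sod1, Sod2, Cat, Nfe2l2, Keap1, Nqo1, Sesn1, Sesn2 and Sesn3) were taken by name from a table of 54347 genes, and each name matched 1 identifier. The profiled cells were leukemia stem cells, sorted from the marrow of C57BL/6JRj mice in all of which leukemia had been induced 30 days earlier. Mutant mice (n = 5, numbers 6, 7, 8, 10 and 12) are labelled Prx1-Cxcl12-mutant and control mice (n = 4, numbers 1 to 4) Prx1-Cxcl12-wild type. Each mouse gave 7000 cells and 2 technical libraries, which were summed. Values are given as CPM, counts scaled to the total of the mouse or library multiplied by its TMM factor. This factor is a scaling computed by edgeR. For the mouse sums the total covered the genes that passed the filter on low counts. The Prx1 promoter is known for its activity in mesenchymal cells of the limb skeleton, and the labels do not say how the mutation was made or in which cells it acts. Neither the leukemia driver, the sorting markers, nor the age and sex of the mice were stated in what was read here. No label says whether the mice came from separate litters or days, so p-values measure the spread between these animals.

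Mammalian cells remove superoxide with superoxide dismutases, which convert it to hydrogen peroxide. Catalase breaks down hydrogen peroxide in peroxisomes. The transcription factor NRF2 (gene Nfe2l2) switches on antioxidant and detoxification genes such as Nqo1, and KEAP1 holds it back by marking it for degradation. Sestrins are stress-induced proteins that restrain the growth regulator mTORC1 and take part in antioxidant defence. In the blood system these genes are studied because leukemic and normal stem cells are sensitive to oxidative stress.

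Total counts per mouse ran from 11766467 to 16784991 in controls and from 15959029 to 25485899 in mutants, so 4 of 5 mutants were deeper than every control. The targeted gene, Cxcl12, a chemokine of marrow stroma, was at 0 to 0.0593 CPM in the sorted cells of controls and 0.0401 to 0.237 CPM in those of mutants, too low to check the labels. All 15 myeloid progenitor and leukemic markers passed the filter on low counts, and 5 were above 0 on the log2 fold scale and 10 below. They summed to 10590 to 12400 CPM in controls and 9802 to 18310 CPM in mutants. Kit had group means of 25.55 and 19.01 CPM without overlap (edgeR adjusted p = 0.254), while Ctsg went the other way (2997 and 4564 CPM). Prrx1, Pdgfra, Col3a1 and Kitl of the stroma, and Cdh5 and Emcn of the endothelium, had at most 3 counts in every mouse. So did Cd3e, Cd3g, Cd4 and Ncr1 of T and NK cells. Other members of these lists were present, with group means in controls and mutants of 43.6 and 37.4 CPM for Pecam1, 6.62 and 4.49 CPM for Pdgfrb, and 126 and 136 CPM for Nkg7. The stromal and endothelial list summed to 46.2 to 59.2 CPM in controls and 38.5 to 52.4 CPM in mutants, and 3 of its 14 members were tested (1 above 0, 2 below). The T and NK cell list summed to 89.96 to 144 and 102 to 194 CPM, with 1 of 11 tested. The B cell list summed to 163.5 to 227 and 126 to 214.5 CPM, mostly Ighm and Cd79b, while Ms4a1 and Pax5 had group means under 0.2 CPM, and all 3 tested members were below 0. The mast cell and basophil list summed to 31.6 to 58.2 and 40.4 to 71.8 CPM, with Mcpt4 and Tpsb2 at 0 counts. Of its 3 tested members 2 were above 0, Mcpt8 at a log2 fold change of 0.43 (SE 0.22) and Hdc at 0.29 (SE 0.20). Cpa3 went the other way at -1.54 (SE 0.42, edgeR adjusted p = 0.259). The erythroid marker list summed to 16.8 to 62.9 CPM in controls and 28.2 to 69.9 CPM in mutants, and of its 8 tested members 7 were above 0 on the log2 fold scale. Among them were the carbonic anhydrase genes Car1 and Car2, whose groups did not overlap, while Slc4a1, Alas2 and Epor had group means under 0.2 CPM. The mature neutrophil list summed to 589 to 1116 CPM in controls and 367.5 to 568.2 CPM in mutants, with 6 of its 12 tested members above 0 and 6 below. Camp had group means of 386 and 139 CPM and made up most of the difference in that sum, while Ltf went the other way (4.82 and 13.5 CPM). The monocyte and macrophage list summed to 682 to 1409 and 723 to 1472 CPM, with 3 of 9 tested members above 0. The part of these cells in the values below was not tested, and in sorted bulk RNA fewer cells of a type and less RNA per cell cannot be told apart.

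NRF2 binds DNA with a small MAF protein at the antioxidant response element, whose core is TGACNNNGC. This core, sought on both strands, stood in 3 of the 10 promoters that RefSeq (GRCm38.p6) lists for the 9 genes, a window from 250 bases before to 50 after the start site. Of all 32851 promoters in that table, 12.4% held it. The matches are shown because they lie in Nfe2l2 itself, in the sestrin gene with the largest difference between groups among the tested members, and in Sod1. Each run is written 5′ to 3′ on the strand of its gene, with the match in capitals and up to 30 bases on either side.
Nfe2l2, chr2:75704865-75704913, minus strand: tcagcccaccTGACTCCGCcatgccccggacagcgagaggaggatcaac
Sesn2, chr4:132510454-132510522, minus strand: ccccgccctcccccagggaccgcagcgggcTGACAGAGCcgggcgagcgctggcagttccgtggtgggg
Sod1, chr16:90220676-90220744, plus strand, match on the opposite strand: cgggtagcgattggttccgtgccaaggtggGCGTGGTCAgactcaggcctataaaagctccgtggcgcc
In this order the matches begin at -240, -36 and -56 relative to the start site. A match is a description of letters and says nothing about binding in these cells, and the promoters of Sod2, Cat, Keap1, Nqo1, Sesn1 and Sesn3 lacked those letters in this window only.

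None of the 9 genes passed the test between mutant and control cells. Of the 8 that had enough counts to be tested, 0 were called at an edgeR adjusted p under 0.05, against 9 of all 12973 tested genes, a background of 0.0694%. By DESeq2 0 of them were called as well (0.694% of all genes it tested), and 0 by limma-voom (0.0694%). Sesn2 was the only one of the 8 at an unadjusted p under 0.05 in the edgeR test, where 9.85% of all tested genes were, and DESeq2 and limma-voom each gave 2 (backgrounds 9.72% and 9.91%). For 0 of the 8 did the mice of both groups stand apart without overlap, against 4.0% of all tested genes. The log2 fold changes, mutant over control, were above 0 for 4 genes and below 0 for 4, with a median of 0.05 against 0.01 over all tested genes.

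**Figure D1:**
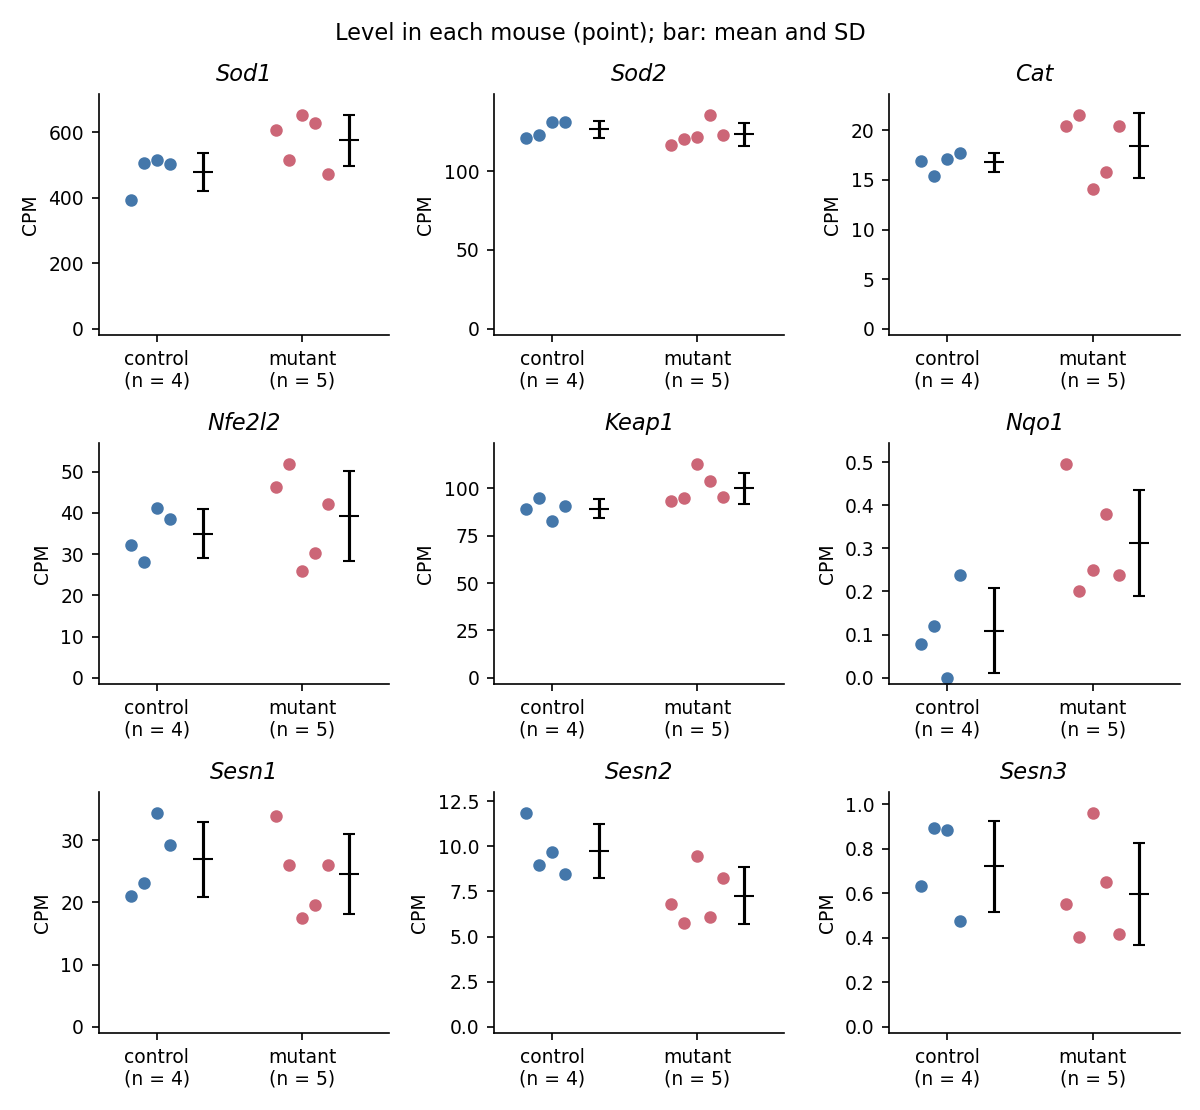
Level of each of the 9 genes in CPM (y axis, from 0, separate scale per gene) in every control (blue) and mutant (red) mouse, with the group mean and SD in black. The groups overlap in each panel, and Sesn2 is the one with all 5 mutant mice below the control mean.

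Sod1 encodes the copper and zinc superoxide dismutase of the cytosol. The control mice had 392, 506, 515 and 503 CPM (mice 1 to 4), and the mutants had 606, 515, 653, 629 and 474 CPM (mice 6, 7, 8, 10 and 12). Control 1 stood below all others, and 4 of 5 mutants were above the control mean, but mutants 7 and 12 lay within or below the range of the other controls. The means were 478.9 ± 58.2 CPM in controls and 575 ± 77.2 CPM in mutants (SD, n = 4 and 5). Mutant over control, the log2 fold change was 0.26 (SE 0.12, edgeR adjusted p = 0.507), with a 95% interval of 0.999 to 1.44 on the fold scale. Without control 1 it was 0.18, and it was 0.09 once the fit carried each mouse's total count. As most mutants were deeper than every control, fits with total count, here and below, cannot tell depth and group apart. The gene (ENSMUSG00000022982; GRCm38 chromosome 16, 90220754 to 90226329) overlaps Scaf4 on the opposite strand at its 3′ end, and a processed pseudogene, Gm8566, matches it at 97.8% over 465 bases with 1 to 9 counts per mouse. Reads of these could be exchanged to the extent that the counting did not separate them.

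Sod2 encodes the manganese superoxide dismutase of mitochondria. It was the steadiest of the tested members between mice, at 121, 123, 131 and 131 CPM in controls and 117, 120, 122, 136 and 123 CPM in mutants, in the same order of mice. The group ranges lay almost on top of each other. The log2 fold change was -0.04 (SE 0.08, edgeR adjusted p = 0.911), and the 95% interval of the fold ran from 0.866 to 1.1, the narrowest of the 8. The SD between mice within groups was 0.07 on the log2 scale, against 0.19 for Sod1. Sod2 (ENSMUSG00000006818) lies on chromosome 17, 13006846 to 13040063. Its longest coding transcript shares stretches of 200 to 210 bases at 90% identity or more with transcripts of other genes, such as Nmnat1 and Ccdc62, so a part of its reads may be uncertain.

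Catalase, the product of Cat, breaks down hydrogen peroxide. Its control values were close together at 16.9, 15.4, 17.1 and 17.7 CPM, and its mutant values were wider at 20.4, 21.6, 14.07, 15.8 and 20.4 CPM. Mutants 6, 7 and 12 stood above all controls while mutant 8 stood below all of them. For Cat the log2 fold change was 0.14 (SE 0.14, edgeR adjusted p = 0.772), with a 95% interval of the fold of 0.896 to 1.35. It was 0.06 without the first library of mutant 7. Cat (ENSMUSG00000027187) lies on chromosome 2, 103453849 to 103485160.

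The balance of the enzymes within a mouse was also compared, as a log2 ratio of counts, which does not depend on how libraries are scaled. A ratio of this kind compares mice and is not taken as a ratio of molecules, since the handling of molecular identifiers was not given. The Sod2 over Sod1 ratio was -1.70, -2.04, -1.97 and -1.94 in controls and -2.38, -2.10, -2.42, -2.21 and -1.95 in mutants. Apart from mutant 12 the mutants lay below all controls, and the mean was lower by a log2 difference of -0.30. A 2-sided exact permutation test over all regroupings of the mice gave p = 0.0476, and 0.190 after adjustment over the 6 ratios tested, so the ratio did not pass. The Cat over Sod1 ratio differed by -0.14 (exact permutation p = 0.548, adjusted 0.821).

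NRF2 itself, from Nfe2l2, was among the more variable members. Control mice had 32.1, 28.0, 41.1 and 38.6 CPM and mutants had 46.4, 51.9, 25.9, 30.3 and 42.2 CPM. The mutants thus spanned the whole control range and went beyond it at both ends. For Nfe2l2 the log2 fold change was 0.17 (SE 0.19, edgeR adjusted p = 0.8) with a 95% interval of the fold of 0.839 to 1.51. Without the first library of mutant 7 it was 0.03. Nfe2l2 (ENSMUSG00000015839) lies on chromosome 2, 75675513 to 75704641.

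Keap1, the repressor of NRF2, was at 89.3, 94.8, 82.7 and 90.8 CPM in controls and at 93.3, 95.04, 113, 104 and 95.4 CPM in mutants. All 5 mutants were above the control mean, and control 2 alone reached into the mutant range. The log2 fold change of 0.16 (SE 0.09, edgeR adjusted p = 0.557) had a 95% interval of 0.983 to 1.28 on the fold scale. It stood at -0.01 in the first technical libraries alone and at 0.30 in the second alone, so it rested on the second libraries. Keap1 (ENSMUSG00000003308; chromosome 9, 21229730 to 21239361) overlaps the antisense gene Gm16754, which had 1 to 8 counts per mouse. The log2 ratio of Nfe2l2 over Keap1 averaged -1.37 in controls and -1.39 in mutants (exact permutation p = 0.944).

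Nqo1, which encodes a quinone reductase and is a widely used readout of NRF2, was near the limit of detection. Its counts were 1, 2, 0 and 4 in the controls and 9, 5, 6, 7 and 4 in the mutants. Of the counts of mutant 6, the highest, 8 came from its first library and 1 from its second. Taking 3 counts in a mouse as the floor, 3 of 4 controls were at or under it and all 5 mutants above it, but the groups met at 4 counts and the mutants were sequenced more deeply. In CPM the ranges were 0 to 0.24 in controls and 0.20 to 0.50 in mutants. The gene did not pass the filter on low counts. With no filter, which tested 24960 genes, its log2 fold change was 1.47 (SE 0.78, edgeR adjusted p = 0.675), a value that depends on few counts. The ratio of Nqo1 over Nfe2l2 was higher in mutants by a log2 difference of 1.38 (exact permutation p = 0.0635, adjusted 0.190). With 5 in place of 0.5 added to each count it was 0.20 (exact permutation p = 0.532), but with so few counts this shrinks the difference by itself. It was 0.72 without control 3, the mouse with 0 counts (exact permutation p = 0.179). Leaving out each other mouse gave 1.21 to 1.74. Without the first library of mutant 7 it was 1.63 (exact permutation p = 0.0159, adjusted 0.0952). Nqo1 (ENSMUSG00000003849) lies on chromosome 8, 107388225 to 107403206.

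Of the sestrin genes, Sesn2 is known as a target of the stress factors ATF4 and p53. It had 11.9, 8.97, 9.67 and 8.47 CPM in controls and 6.77, 5.74, 9.48, 6.09 and 8.24 CPM in mutants. All mutants were below the control mean and 4 of 5 were below every control, with mutant 8 inside the control range. The means were 9.74 ± 1.49 and 7.26 ± 1.57 CPM (SD, n = 4 and 5). The log2 fold change was -0.42 (SE 0.17, edgeR adjusted p = 0.443), and its 95% interval, 0.577 to 0.970 on the fold scale, is not adjusted for the number of genes tested. It was -0.28 once the fit carried each mouse's total count. Sesn2 (ENSMUSG00000028893) lies on chromosome 4, 132492032 to 132510501. The genes outside the set whose log2 CPM over the 9 mice was most like that of Sesn2 were the protease gene Adam17 (Pearson r 0.95), Ccdc85b (0.95) and Spout1 (0.94), given as a description, since they were picked as the highest of all tested genes and share the libraries and their depth.

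Sesn1, a p53 and FOXO target, had 21.01, 23.1, 34.4 and 29.2 CPM in controls and 33.9, 26.0, 17.4, 19.6 and 26.0 CPM in mutants. Mutants 8 and 10 stood below every control and the others inside the control range. Its log2 fold change was -0.13 (SE 0.19, edgeR adjusted p = 0.849; 95% interval of the fold 0.68 to 1.22), and it turned to 0.01 without control 3. The first technical libraries alone gave -0.38 and the second alone 0.08. Sesn3, a FOXO target, had 7 to 23 counts per mouse, or 0.47 to 0.89 CPM in controls and 0.40 to 0.96 CPM in mutants. Its log2 fold change of -0.26 (SE 0.37, adjusted p = 0.842) had an interval of the fold from 0.476 to 1.46, the widest of the 8. Without each mouse in turn it ran from -0.14 (without mutant 7) to -0.52 (without mutant 8), and it was -0.57 once the fit carried each mouse's total count. The ratios of Sesn2 and of Sesn3 over Sesn1 differed by -0.29 and -0.16 on the log2 scale (exact permutation p = 0.452 and 0.722). Sesn1 (ENSMUSG00000038332) lies on chromosome 10, 41809935 to 41908424, and Sesn3 (ENSMUSG00000032009) on chromosome 9, 14275067 to 14333101. Sesn1 overlaps 9930024M15Rik on the same strand, which had 5 to 28 counts per mouse. Their reads could be exchanged to the extent that the counting did not separate them.

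**Figure D2:**
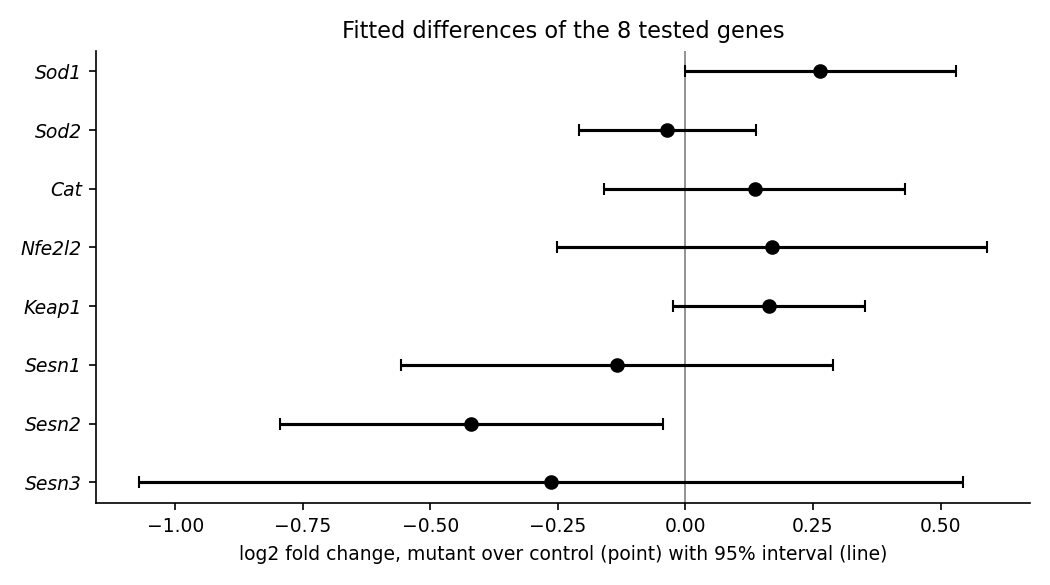
Log2 fold change, mutant over control, of the 8 tested genes (points, x axis) with unadjusted 95% intervals (lines). The interval of Sesn2 lies below 0, that of Sod1 reaches 0, and that of Sod2 is the narrowest.

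For 7 of the 8 tested genes, all but Sod1, the SD between single libraries of a mouse was larger than the SD between mice of a group, which was taken over sums of 2 libraries. The share of all tested genes for which this holds was not computed, so the count is not shown to be particular to these genes. Nfe2l2 and Sesn1 stood highest of the 8 when set against genes of like count. For Nfe2l2 the SD between libraries of a mouse was 0.46 on the log2 scale, against 0.09 from counting alone and 0.36 between mice within groups. For Sesn1 the same values were 0.46, 0.10 and 0.36. In mutant 10 the first library had 19.9 CPM of Nfe2l2 and the second 42.0 CPM, and 11.6 and 28.8 CPM of Sesn1. In mutant 7 the order was the other way, with 64.5 and 33.4 CPM of Nfe2l2 and 32.8 and 15.9 CPM of Sesn1. The ratio of library SD to counting SD was 5.36 for Nfe2l2 and 4.42 for Sesn1, higher than in 98.6% of tested genes with a mean count within 1.5-fold of theirs, for both. For Sod1, Sod2, Cat, Keap1, Sesn2 and Sesn3 that percentile lay between 35.2 and 75.1. The second library was the higher in 5 of 9 mice for either gene.

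**Figure D3:**
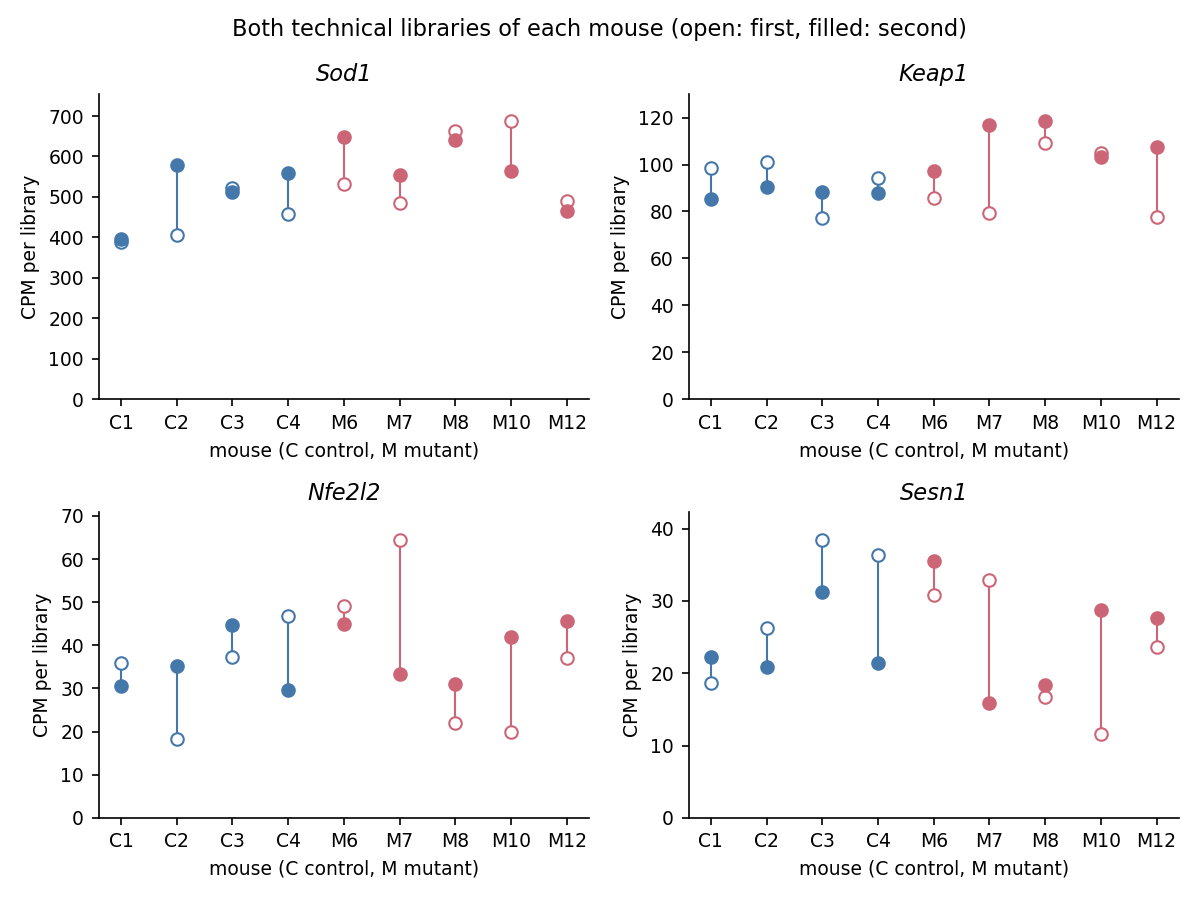
CPM of Sod1, Keap1, Nfe2l2 and Sesn1 (y axis, from 0) in the first (open) and second (filled) technical library of each mouse, joined by a line. The lines of Nfe2l2 and Sesn1 are long in mutants 7 and 10, where the libraries differ up to 2.11-fold and 2.49-fold.

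The surrounding pathway showed the same picture. Of 188 other genes on 6 lists, 151 were tested and 0 were called by edgeR, while DESeq2 called 1, where 0.694% of all genes it tested were called, so that 1 call among these genes is near the background. At an unadjusted p under 0.05 in the edgeR test were 17 genes (11.3%, against 9.85% of all tested genes), 9 higher and 8 lower. Over the 151 genes the median log2 fold change was 0.02 against 0.01 over all tested genes, of which 51.7% were above 0.

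The gene called by DESeq2 alone was Slc39a8, on the list of superoxide dismutase partners. It encodes a membrane importer of manganese and zinc, and manganese is the metal of the Sod2 enzyme. Its values were 3.55, 3.44, 5.45 and 4.56 CPM in controls and 7.27, 7.59, 7.89, 8.10 and 6.46 CPM in mutants, so that every mutant was above every control. The log2 fold change was 0.81 (SE 0.17, edgeR adjusted p = 0.146, DESeq2 adjusted p = 0.00531). Over its other alternatives, with edgeR or limma, the adjusted p was 0.0824 to 0.982, the highest once the fit carried each mouse's total count, and the log2 fold change 0.66 to 0.95. Of the other tested partners none was called: the copper importer gene Slc31a1 was at 0.32 (SE 0.15) and Ccs, the chaperone that loads copper into SOD1, at -0.16 (SE 0.11). Of the 8 tested partners 5 were above 0.

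Genes of NRF2 control also stayed under the threshold, with 0 of 24 called, 14 above 0 and a median of 0.02. Smallest in p were the deubiquitinase gene Usp11 at -0.33 (SE 0.13), Amer1 at 0.40 (SE 0.17) and Bach1, a repressor that competes with NRF2 for its sites, at -0.31 (SE 0.16). Of 41 tested NRF2 targets 0 were called, 26 were above 0 and 15 below, and 11 more of the list had at most 3 counts in every mouse. At an unadjusted p under 0.05, 4 were higher and 3 lower (background 9.85% in both directions together). The 3 lower were also the smallest in p. The glutathione reductase gene Gsr went from 326 ± 22.4 to 259.6 ± 37.1 CPM (log2 fold change -0.33, SE 0.11). The glutathione transferase gene Gstp1 was at -0.25 (SE 0.08) and the ferritin gene Ftl1 at -0.34 (SE 0.12), with edgeR adjusted p-values of 0.369 to 0.388 for these 3. The 4 higher were Gstm1 at 0.50 (SE 0.20), Gstm2 at 0.52 (SE 0.23), Ptgr1 at 0.38 (SE 0.16) and Gclm at 0.28 (SE 0.13). Their edgeR adjusted p-values were 0.431 to 0.503.

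In the catalase compartment, 0 of 27 tested peroxisome genes were called, with a median of 0.05. Pex7, a receptor that brings proteins into peroxisomes, was at 0.50 (SE 0.19), the thiolase gene Acaa1a at -0.20 (SE 0.08) and Pex6 at -0.32 (SE 0.15). Of 38 tested genes of the sestrin effectors, mTORC1 and AMPK 0 were called, with 18 above and 20 below 0. The AMPK subunit genes Prkag1 and Prkab2 were at 0.29 (SE 0.09) and -0.58 (SE 0.26), and Castor2, an arginine sensor family gene, at -0.76 (SE 0.26). Among 13 tested regulators of the sestrin genes 0 were called. The kinase genes Eif2ak2 and Eif2ak4 were at 0.33 (SE 0.13) and 0.16 (SE 0.11), and Jun at -1.22 (SE 0.52), while Atf4 (0.10, SE 0.09) and Trp53 (-0.13, SE 0.17) were named after their values were seen.

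**Figure D4:**
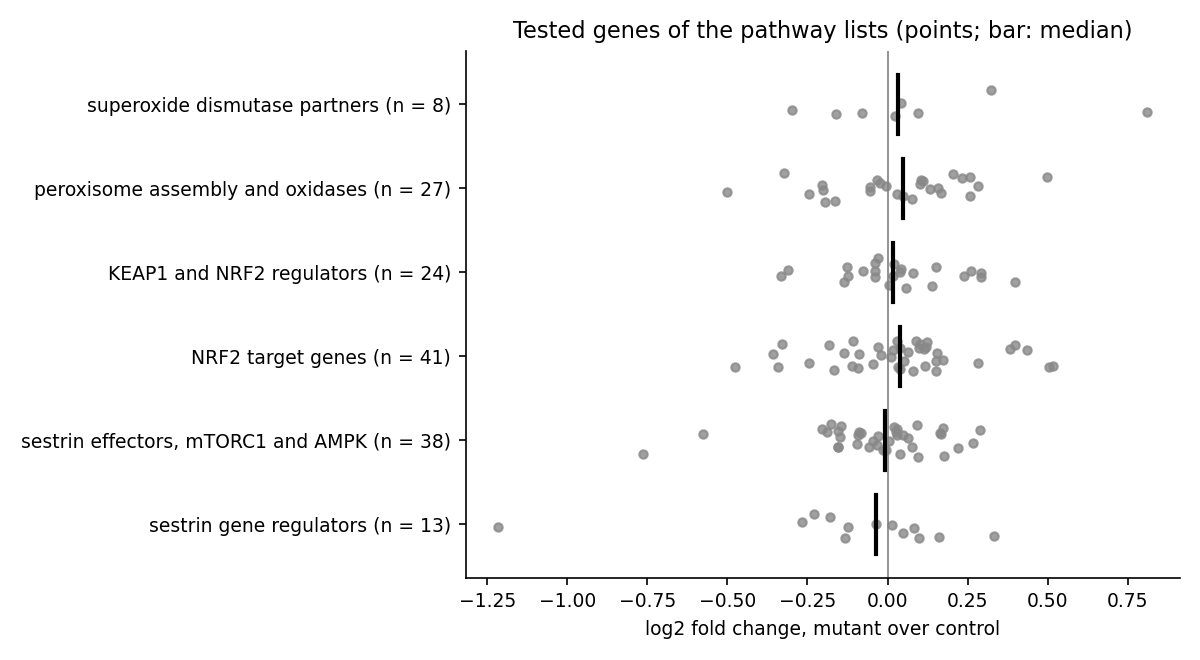
Log2 fold change, mutant over control (x axis), of each tested gene of the 6 pathway lists (points), with the list's median as a black bar. The medians lie between -0.04 and 0.05, Slc39a8 is the rightmost point at 0.81 and Jun the leftmost at -1.22.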

How the data were processed

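The authors deposited 1 table of estimated counts for 54347 genes in 18 libraries, made by 3′-end MARS-seq of polyadenylated RNA per the labels' protocols. Salmon 1.3 and GRCm38 appear in the submitters' processing notes. Molecular identifiers, annotation and strand setting: not given in the sources used here. To name genes, the first 18 characters of each identifier were matched to GENCODE M21, which named 54094. Library totals were 3825500 to 15071673 counts, and the floor of 3 counts covers counting error only. For each mouse the counts were added over its libraries, then rounded.

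All 9 mice were fitted with edgeR 4.0.16 in R 4.3.3 (filterByExpr minimum count 10, TMM, quasi-likelihood F-test, 12973 genes, Benjamini-Hochberg over all of them), and SE is the coefficient over the square root of F. The script was tested on simulated data. Mouse numbers are not shared between groups, so no pairing was used. Ratios used counts plus 0.5 and an exact permutation test. Alternatives included DESeq2 1.42.0, limma 3.58.1, other scalings and filters, single libraries and leaving out each mouse. Copies were sought with blastn (90% identity over 200 bases).

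The genes named were the 9 members, in each pathway list those past the threshold and the 3 with the smallest p, and the 3 most like the member with the smallest p. Also named were the 4 NRF2 targets that were higher at an unadjusted p under 0.05. Members, lists and alternatives were chosen with earlier results of these data known. The ratios without the first library of mutant 7 and the relations between library differences were added after the values were seen.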

Additional observations from a re-analysis of the deposited data

Results flagged for a closer look

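Of 30 sets of values checked (9 genes and 6 ratios, in the control and the mutant mice), 1 had a single mouse far from the rest. Control 1 had 392 CPM of Sod1, while the next control had 503 CPM and the highest 515 CPM. The gap was 0.905 of the range. Chance flags about 1 set in 20. Control 1 also had the lowest total count of the 9 mice, 11766467, and the highest TMM factor, 1.08, which lowers its CPM. Without control 1 the log2 fold change of Sod1 was 0.18.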

How the results depend on the processing

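Over 21 alternatives, 0 of the 9 genes were called in each, with edgeR, DESeq2 or limma adjusted p-values of the tested genes no lower than 0.294. The count of members at an unadjusted p under 0.05 was 0 to 2, and that of all genes called was 9 with edgeR, 90 with DESeq2, 21 without a filter, 3 in the second libraries alone, 59 in the 18 libraries with the technical library number as a replicate block and the mouse as a random effect (0 members), 0 for genes averaging 10 CPM or more, in the first libraries alone, with total count in the fit or without the first library of mutant 7, and 0 to 7 without each mouse. DESeq2 called 1 other pathway gene. The log2 fold changes ran from 0.09 to 0.37 for Sod1, 0.06 to 0.22 for Cat, 0.03 to 0.29 for Nfe2l2, -0.54 to -0.28 for Sesn2 and -0.57 to -0.14 for Sesn3. Signs changed for Sod2 at 0.016 without the first library of mutant 7, Keap1 at -0.015 in the first libraries, and Sesn1 at 0.075 in the second libraries (-0.38 in the first) and -0.28 to 0.0064 without each mouse. In the first libraries alone the Sod2 over Sod1 ratio difference was -0.38 and passed (exact permutation, adjusted p = 0.0476). Its unadjusted p of 0.00794 is the smallest that 126 regroupings allow. The second libraries alone gave -0.24 (exact permutation, adjusted p = 0.508), and leaving out control 1 gave -0.23 (exact permutation, adjusted p = 0.321). Over all its alternatives the adjusted p was 0.0476 to 0.508. In the first libraries alone the differences of Nfe2l2 over Keap1, Sesn2 over Sesn1 and Sesn3 over Sesn1 were 0.12, 0.091 and 0.31. Cat over Sod1 was 0.012 in the second. Without each mouse Nfe2l2 over Keap1 ranged from -0.15 to 0.16 and Sesn3 over Sesn1 from -0.46 to 0.012. Nqo1 over Nfe2l2 ranged from 0.20 with 5 added to each count to 1.74 without control 4. The cause was not tested. Sesn2 had a value in 20 of the 21 alternatives and Sesn3 in 16. Nqo1 and Sesn3 are limited by depth.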

Other observations

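Over the 9 mice, the differences between the second and first library were related for 28 pairs of the 8 members seen in every library. None passed after adjustment over the pairs by a 2-sided exact permutation test, and 9 had an unadjusted p under 0.05. The share over pairs of other genes was not computed, and all pairs share the same libraries and scaling. The 9 pairs are therefore not shown to be particular to these genes. The smallest p belonged to Sesn1 and Sesn2 (Pearson r = -0.79, exact permutation p = 0.0091, adjusted 0.116; Spearman rho = -0.85, exact permutation p = 0.00607, adjusted 0.17), where the library with more Sesn1 had less Sesn2 in 8 of 9 mice. Without the mice with the farthest Sesn1 differences, mutants 7 and 10, r was -0.69. Nfe2l2 and Sesn1 had r = 0.70 (exact permutation p = 0.0348, adjusted 0.125) and rho = 0.50 (exact permutation p = 0.178, adjusted 0.622). Without mutant 7 and control 4, the mice with the farthest Nfe2l2 differences, r was 0.30. Leaving out the farthest mice narrows the range, so the lower r does not show that the relation rested on them.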
